A study of Mus musculus with 9 samples.

Results

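Potassium channel genes were compared between the hippocampus of Nestin;BrafKE/+ mice and that of Braf+/+ mice. The set was every gene of the deposited table whose name begins with Kcn, leaving out names that end in os, with a mean value of at least 10 over the 9 libraries. It held 81 of the 18275 genes in the table. Of 87 names beginning with Kcn, 5 had a lower mean and 1, Kcnd3os, was left out by name. Expression chose the set only through this mean over both genotypes. Just above it lay Kcnj5 at 12.2 and Kcnk5 at 12.98, and just below it Kcnh8 at 9.77 and Kcnrg at 8.77. Of the 81 genes, 56 encode pore-forming subunits, 9 encode silent subunits that conduct only in complexes with other subunits, 13 encode auxiliary or regulatory subunits, and 3 are non-coding transcripts that carry the name of a channel gene.

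Stranded mRNA libraries had been made from adult male mice on the C57BL/6N strain, 1 per animal, from 4 Nestin;BrafKE/+ and 5 Braf+/+ mice. Nestin;BrafKE/+ mice carry 1 floxed Braf allele with the substitution K499E (Lys to Glu), found in patients with cardiofaciocutaneous syndrome, switched on by Nestin-Cre in neural progenitors and therefore in the neurons and glia that come from them. Braf+/+ mice have the wild-type gene. The question was how the genes that set potassium conductance differ between these genotypes in a tissue of many cell types, where fewer cells of a type and less RNA per cell cannot be told apart.

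Potassium channels let potassium leave a cell along its gradient, which pulls the membrane towards rest, ends action potentials and sets how readily a neuron fires. Voltage-gated channels (Kv, encoded by Kcna to Kcnd, Kcnq, Kcnh and silent relatives) open on depolarisation, inward rectifiers (Kir, Kcnj) hold the resting potential or answer to G proteins, two-pore-domain channels (K2P, Kcnk) carry background current, and calcium- or sodium-activated channels (Kcnma1, Kcnn, Kcnt) open as these ions enter. Potassium channel-interacting proteins (KChIPs, Kcnip1 to Kcnip4) are calcium-binding proteins that join Kv4 channels, which carry the rapid A-type current of hippocampal dendrites.

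The sequences show the structural split along which the results are ordered. A selectivity-filter signature, written here as serine or threonine, any residue, glycine, then tyrosine, phenylalanine or leucine, then glycine, was searched in the coding sequence of the canonical transcript of each gene (Gencode vM39, GRCm39). It occurred in 56 of 56 pore-forming and 9 of 9 silent subunit genes and in 0 of 13 auxiliary ones, against 5.38% of 21770 protein-coding genes. It occurred at 2 places in 9 of 10 Kcnk genes, the family with a pair of pore loops per subunit, against 0.537% of all protein-coding genes. Outside that family it occurred at 2 places in Kcna6 and Kcnh2. Shown are Kcnj9, a pore-forming gene that passed the test below, and Kcnd2, whose Kv4.2 channel the KChIPs join, 45 coding bases each with the 5 signature codons in capitals. A signature match describes the sequence and was not used to choose any gene.
Kcnj9: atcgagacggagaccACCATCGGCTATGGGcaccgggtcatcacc
Kcnd2: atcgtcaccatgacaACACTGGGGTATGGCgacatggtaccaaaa

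The Kcnj9 stretch lies at chr1:172153736-172153780 on the minus strand, in exon 3 of 4. That of Kcnd2 spans the intron between exons 1 and 2 of 6 at chr6:21217390-21714155, plus strand. These stretches shared 25 of the 45 bases.

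The KChIP genes have no filter signature and carry EF-hands, the helix-loop-helix folds that bind calcium. The usual EF-hand loop pattern occurred in 0.997% of protein-coding genes, and among the potassium channel genes in the 4 Kcnip genes alone. The last loop of each is shown, 39 coding bases with the first and the 12th codon, both of which supply calcium ligands, in capitals.
Kcnip1: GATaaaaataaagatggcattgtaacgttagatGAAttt
Kcnip2: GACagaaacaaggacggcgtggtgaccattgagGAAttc
Kcnip3: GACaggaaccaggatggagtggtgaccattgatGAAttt
Kcnip4: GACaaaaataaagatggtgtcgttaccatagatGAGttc

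These loops lie at chr11:33583166-33583204, chr19:45782458-45782496, chr2:127301268-127301306 and chr5:48553365-48553403 for Kcnip1 to Kcnip4, in that order, each on the minus strand and in the last exon but one. Kcnip2 and Kcnip3 were the most alike pair, with 33 of 39 bases shared, and Kcnip1 shared 26 with each of them. The proteins encoded are 227, 230, 256 and 216 residues long.

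Values are the authors' normalised, batch-adjusted counts, called normalised signal here, and the sequenced depth behind them is unknown. Their totals ran from 19550000 to 20090000 per library. Braf itself read 2144 to 2469 in Nestin;BrafKE/+ and 2635 to 3030 in Braf+/+ libraries, and the substitution cannot be seen in a gene-level value. By the names of the libraries they form 3 series, A with 1 Nestin;BrafKE/+ and 3 Braf+/+ animals, B with 2 and 1, and C with 1 and 1. Markers fixed by name included 8 choroid plexus genes, which summed to 1476 to 24819 in Nestin;BrafKE/+ libraries and to 4740 to 392090 in Braf+/+ libraries, with Braf+/+ replicate 2 highest and replicate 4 next at 114910. Oligodendrocyte markers were higher in Nestin;BrafKE/+ mice, 10 of 10 in direction and 4 past the test, with sums of 124960 to 134400 against 91023 to 110350. Pyramidal neuron markers of CA1 summed to 11278 to 11845 against 9047 to 9782, with 4 of 5 higher in direction and 2 past the test. Those 2 were Wfs1 (mean 3635 against 2377) and Fibcd1 (3937 against 2991), both higher. Man1a and Pou3f1 did not pass, nor did Gpr161, which was lower (1360 against 1584). No marker was at 0. The part of these differences in the results below was not tested. Values without the libraries concerned are given for some genes.

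Across the whole set, few genes passed the test, and most of those that did bind to channels rather than form a pore. Of the 81 genes, 8 passed the test (limma on log2(value + 1) with genotype and series as terms, adjusted p under 0.05 over 16196 genes), which was 9.88%, against a background of 2.88% of all genes tested. Kcnip1, Kcnip2, Kcnip3 and Kcnj10 rose and Kcnip4, Kcnj9, Kcnq3 and Kcnmb4 fell, that is 4 in each direction, where 1.52% of all genes rose and 1.36% fell. By role, 5 of 13 auxiliary genes, 3 of 56 pore-forming genes and 0 of 9 silent subunits were called. The Kcnip genes made up 4 of the 5 auxiliary calls. At an unadjusted p under 0.05 there were 26 genes (32.1%), 8 higher and 18 lower, against 18.5% of all genes, of which 8.86% were higher and 9.61% lower. By role these were 18 of 56 pore-forming, 5 of 13 auxiliary and 2 of 9 silent subunit genes, and 1 of 3 non-coding transcripts.

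Every animal of one genotype lay above every animal of the other for 19 of the 81 genes (23.5%), where the same held for 15.7% of all genes tested. In direction alone 36 were higher and 45 lower in Nestin;BrafKE/+ mice, with 50.1% of all genes higher and 49.9% lower. The median log2 change (log2 fold change, Nestin;BrafKE/+ minus Braf+/+) was -0.08, against 0.00 over all genes, and the median size without sign was 0.18, against 0.12. Much-expressed genes were called more often in general. Among the 29 channel genes with a mean of at least 1000, 5 were called, beside 4.81% of the 4470 genes at that level. The counts moved most without Nestin;BrafKE/+ replicate 1, Nestin;BrafKE/+ replicate 3 or Braf+/+ replicate 4. Without the first the 8 calls became 1 and the 26 became 16, without the second the 8 became 3, and without the third they also became 3. Nestin;BrafKE/+ replicate 1 is the only one of its genotype in series A, Braf+/+ replicate 4 the only one in series B, and series C has 1 animal of each genotype. With series as a term, leaving out any of these 4 animals takes the whole series out of the genotype contrast, here and for each gene below, so such a lost call does not show that 1 animal decided it.

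**Figure D1:**
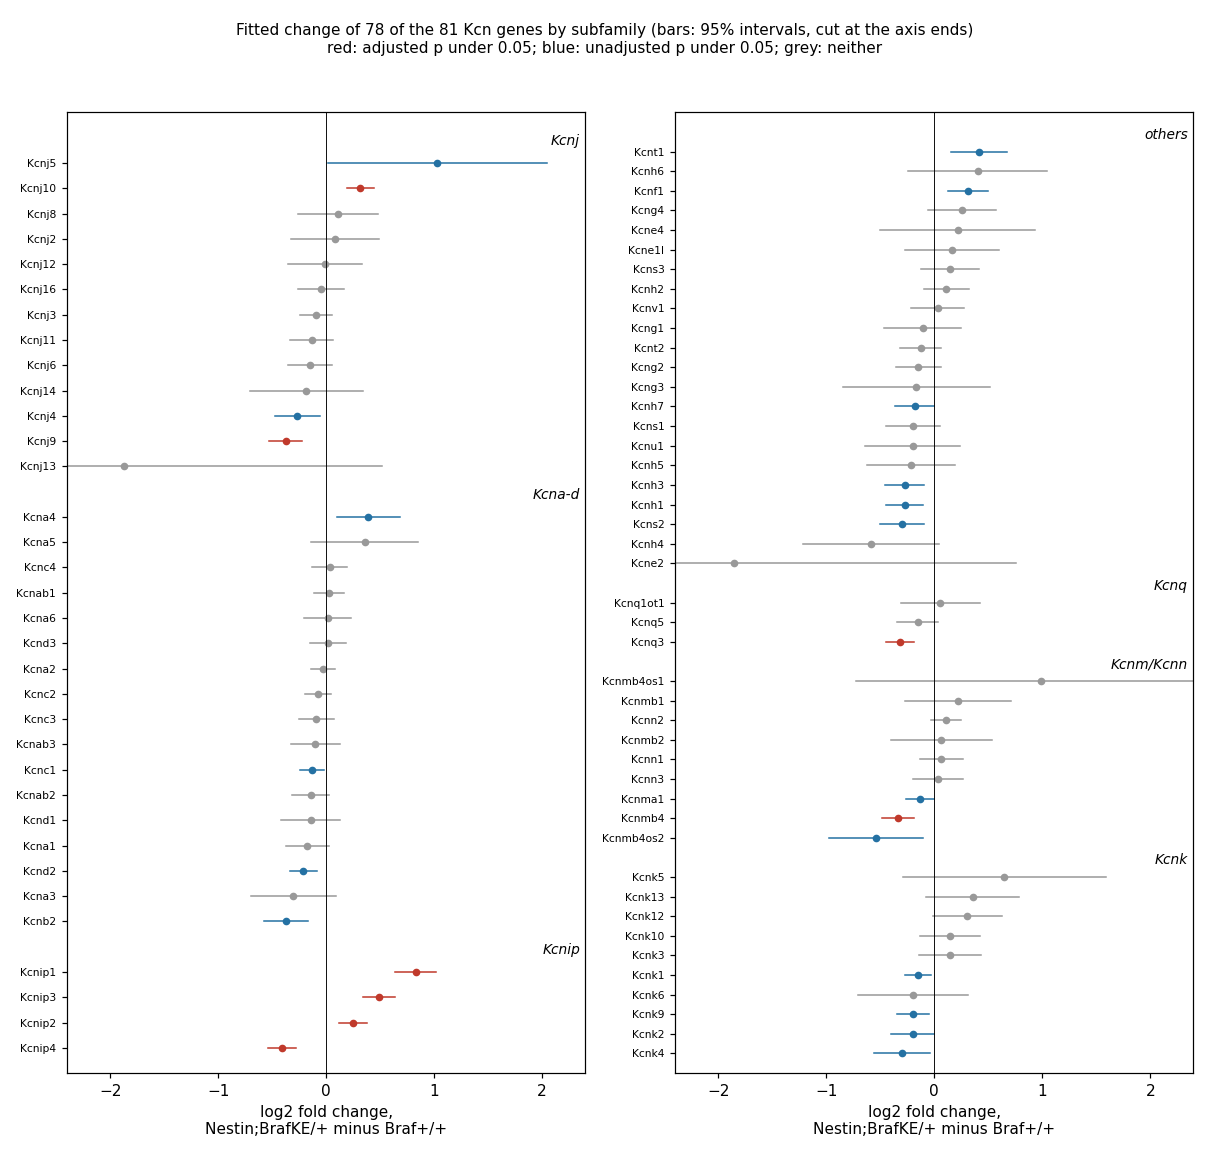
Fitted log2 change (Nestin;BrafKE/+ minus Braf+/+, x axis) with its 95% confidence interval for 78 of the 81 genes, grouped by subfamily on the y axis, in red for an adjusted p under 0.05, blue for an unadjusted p under 0.05 and grey otherwise (intervals of Kcnj13, Kcne2 and Kcnmb4os1 run past the axis). The 4 Kcnip genes are all past it, 3 to the right of 0 and 1 to the left, and most other genes lie within 0.5 of 0.

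The KChIP family was the one subfamily in which each measured member changed, and it did not move in one direction. Kcnip1, Kcnip2 and Kcnip3 rose and Kcnip4 fell. All 4 genes of the family were measured and called, and in each the animals of the 2 genotypes were separate. The products slow or speed inactivation of Kv4 channels and carry them to the cell surface. KChIP3 is also known as calsenilin and as DREAM, a calcium-dependent repressor of transcription, and some forms of KChIP4 slow Kv4 inactivation and hold the channel inside the cell.

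Kcnip1 (ENSMUSG00000053519, chr11:33576285-33943152, minus strand) had the largest change of the called genes. In the 4 Nestin;BrafKE/+ libraries its normalised signal was 616, 545, 640 and 560. In the 5 Braf+/+ libraries it was 318, 314, 347, 329 and 348. Every Nestin;BrafKE/+ library thus lay well above the highest Braf+/+ library. The means were 591 ± 44.9 (SD, n = 4) and 331 ± 16.0 (SD, n = 5), with a log2 change of 0.83 (SE 0.09, adjusted p = 0.00177). The difference was 0.92 in series A, 0.84 in series B and 0.68 in series C. It passed the test without any 1 of the 9 libraries (highest adjusted p = 0.0312) and without Braf+/+ replicates 2 and 4 together (adjusted p = 0.0356). Interneurons are known for Kcnip1, and beside it 6 of 7 inhibitory neuron markers were higher, 0 passed the test and their sums, 15980 to 17837 against 14399 to 16175, overlapped. Of 6 excitatory neuron markers 4 were higher and 2 lower, and of these 1 (Neurod2, lower) passed the test. Their sums were 132010 to 155650 against 122840 to 139290. The part of either class of neuron in the change of Kcnip1 was not tested.

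Kcnip3 (ENSMUSG00000079056, chr2:127298418-127364014, minus strand) rose by a smaller factor from a higher level. It read 2321, 2032, 2094 and 2064 in Nestin;BrafKE/+ libraries. In Braf+/+ libraries it read 1389, 1558, 1464, 1608 and 1559. The groups were separate, with Nestin;BrafKE/+ replicate 1 above the other three of its group. Means of 2128 ± 132 (SD, n = 4) and 1516 ± 87.9 (SD, n = 5) gave a log2 change of 0.49 (SE 0.07, adjusted p = 0.00565). Without Nestin;BrafKE/+ replicate 1 the change was 0.38 and was not called (adjusted p = 0.0674).

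Kcnip4 (ENSMUSG00000029088, chr5:48546844-49682249, minus strand) went the other way. Its values were 814, 792, 831 and 823 in Nestin;BrafKE/+ mice. They were 1110, 1117, 1016, 1091 and 1071 in Braf+/+ mice, so that the lowest Braf+/+ animal lay above the highest Nestin;BrafKE/+ animal. The means were 815 ± 16.7 (SD, n = 4) and 1081 ± 40.7 (SD, n = 5), and the log2 change was -0.41 (SE 0.06, adjusted p = 0.0073). Its 3 series differences were close together, at -0.41, -0.43 and -0.38. The call was lost without Braf+/+ replicate 4 (adjusted p = 0.0525) and without Nestin;BrafKE/+ replicate 1 (adjusted p = 0.0677).

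Kcnip2 (ENSMUSG00000025221, chr19:45780278-45804836, minus strand) was the most highly expressed of the family per length and the least certain call. It read 3276, 3775, 3472 and 3515 in Nestin;BrafKE/+ libraries against 3085, 2960, 2993, 2764 and 2940 in Braf+/+ libraries. No value of one group fell within the other, and the gap between them was narrow. With means of 3509 ± 205 (SD, n = 4) and 2948 ± 117 (SD, n = 5), the log2 change was 0.25 (SE 0.06, adjusted p = 0.0497). The call was lost without any 1 of the 9 libraries, with adjusted p from 0.0661 to 0.250 and the change between 0.18 and 0.33.

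The balance within the family differed accordingly. Of the 4 genes' summed signal per kilobase of canonical transcript, Kcnip1 made up 7.64% to 9.15% in Nestin;BrafKE/+ libraries and 5.27% to 5.94% in Braf+/+ libraries, and Kcnip3 23.8% to 28.02% against 19.5% to 23.3%. The share of Kcnip4 was 11.2% to 12.01% against 17.6% to 19.1%. Kcnip2 held 51.2% to 57.3% and 51.9% to 56.2%, ranges that overlap. Predicted genes overlap Kcnip1, Kcnip3 and Kcnip4 on their own strand, so that a part of the reads counted there may belong to either, and isoforms were not separated.

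**Figure D2:**
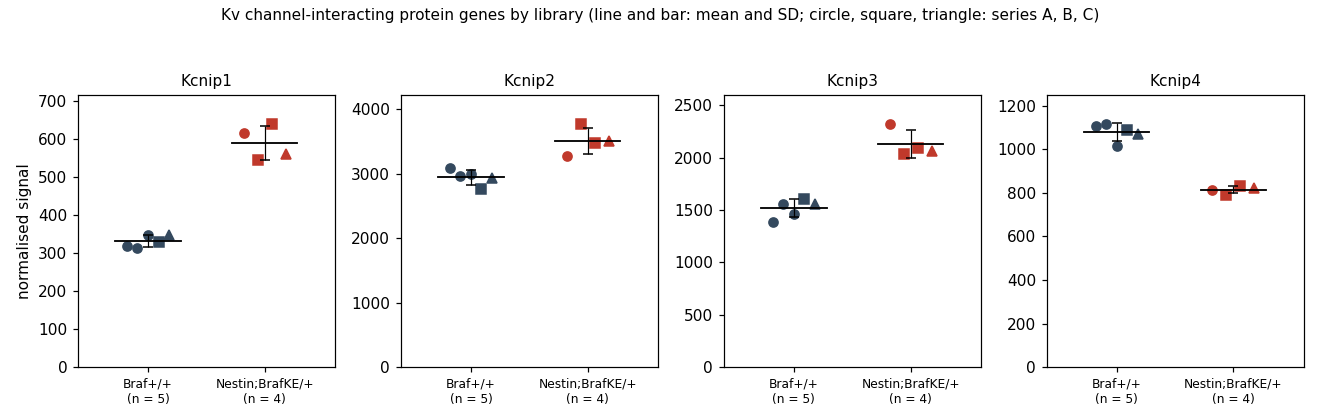
Normalised signal (y axes) of Kcnip1, Kcnip2, Kcnip3 and Kcnip4 in each library, 1 panel per gene, with the genotype on the x axis, 1 point per animal, marker shape by series, and a line and error bar for the mean and SD of each group. The 2 genotypes are separate in all 4 panels, with Nestin;BrafKE/+ above for Kcnip1, Kcnip2 and Kcnip3 and below for Kcnip4.

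The pore-forming partners of the KChIPs and the other Kv1 to Kv4 genes gave no call. None of the 18 genes Kcna to Kcnd and Kcnab passed the test; 4 had an unadjusted p under 0.05, 1 of them higher (Kcna4) and 3 lower (Kcnb2, Kcnd2 and Kcnc1). In direction 6 were higher and 12 lower, with a median log2 change of -0.08. Kcnd2, which encodes Kv4.2, the main A-type channel of hippocampal pyramidal dendrites, read 2067, 2040, 2024 and 2121 in Nestin;BrafKE/+ libraries. In Braf+/+ libraries it read 2564, 2381, 2219, 2462 and 2324, all above the highest of the other group. Its log2 change of -0.21 (SE 0.06) had an adjusted p of 0.0801. Kcnd3, its close relative Kv4.3, had a log2 change of 0.02 with an interval from -0.15 to 0.18, and Kcnd1 one of -0.14.

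Kcnb2, a delayed-rectifier gene (Kv2.2), came nearest to the threshold. It read 346, 356, 297 and 350 in Nestin;BrafKE/+ and 415, 452, 425, 467 and 419 in Braf+/+ libraries, groups that did not overlap. The log2 change was -0.37 (SE 0.09, adjusted p = 0.0574). Kcna4 (Kv1.4), an A-type channel of axons, had 0.39 (adjusted p = 0.150) with groups that overlapped, and without Braf+/+ replicate 4 its adjusted p was 0.0447.

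Among genes of fast-spiking interneurons, Kcnc1 (Kv3.1) was separate between the groups, at 2672 to 2786 against 2852 to 3125, with a log2 change of -0.13 (adjusted p = 0.199). Kcnc2 had -0.08 (adjusted p = 0.503). The axonal genes Kcna1 and Kcna2 had -0.18 (adjusted p = 0.338) and -0.03 (adjusted p = 0.818). The sign of Kcna2 turned to 0.02 without Braf+/+ replicate 4. Kcnab2, a beta subunit of Kv1 channels, had the highest signal per kilobase of the whole set and a log2 change of -0.14 (adjusted p = 0.364).

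Inward rectifiers gave one gene that rose and one that fell, and these are neighbours on chromosome 1. Kcnj10 encodes Kir4.1, the main potassium conductance of astrocytes, which takes up the potassium that neurons release. Kcnj9 encodes GIRK3, a subunit of the G protein-gated channels through which inhibitory transmitters act on neurons. Of 13 Kcnj genes 4 were higher and 9 lower, 2 were called, and the median log2 change was -0.09. At an unadjusted p under 0.05 there were 4, of which 2 were higher (Kcnj5 and Kcnj10) and 2 lower (Kcnj4 and Kcnj9).

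Kcnj10 (ENSMUSG00000044708, chr1:172168765-172201652, plus strand) read 4311, 3960, 4255 and 3991 in Nestin;BrafKE/+ libraries. In Braf+/+ libraries it read 3056, 3280, 3456, 3347 and 3424, and the groups did not overlap. Means of 4129 ± 179 (SD, n = 4) and 3313 ± 159 (SD, n = 5) gave a log2 change of 0.32 (SE 0.06, adjusted p = 0.0178). The call was lost without Braf+/+ replicate 4 (adjusted p = 0.0821), Nestin;BrafKE/+ replicate 1 (adjusted p = 0.137) or Nestin;BrafKE/+ replicate 3 (adjusted p = 0.0590). Beside it, 8 of 10 astrocyte markers were higher and 2 passed the test (Aldoc and Gfap), with summed signals of 113180 to 126410 against 105800 to 119510, which overlap. Oligodendrocytes also express Kcnj10, and their markers were the separate sums given above. The sums of 4 oligodendrocyte precursor markers were separate too, at 3497 to 3830 against 2865 to 3163, with 3 of 4 higher and 1 (Cspg4, 0.65, adjusted p = 0.00261) past the test. The part of any of these cell types in the change of Kcnj10 was not tested. Kcnj16, which encodes the Kir5.1 partner of Kir4.1, had a log2 change of -0.05 (interval -0.26 to 0.17), and it turned to 0.04 without Nestin;BrafKE/+ replicate 1.

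Kcnj9 (ENSMUSG00000038026, chr1:172144668-172163568, minus strand) read 1358, 1516, 1394 and 1585 in Nestin;BrafKE/+ libraries. In Braf+/+ libraries it read 1865, 1937, 2021, 1915 and 1746, again without overlap. The means were 1463 ± 106 (SD, n = 4) and 1897 ± 101 (SD, n = 5), with a log2 change of -0.38 (SE 0.07, adjusted p = 0.0202). It was smallest in series C, at -0.14, where series A gave -0.51 and series B -0.40. Leaving out Braf+/+ replicate 4 (adjusted p = 0.111), Nestin;BrafKE/+ replicate 1 (adjusted p = 0.153) or Nestin;BrafKE/+ replicate 3 (adjusted p = 0.0613) ended the call. The other neuronal GIRK genes, Kcnj3 (GIRK1) and Kcnj6 (GIRK2), had log2 changes of -0.09 (interval -0.24 to 0.06) and -0.15 (interval -0.35 to 0.05). Whether the change of Kcnj9 differed from theirs was not tested. Kcnj4 (Kir2.3) had -0.27 (adjusted p = 0.159) with groups that overlapped, and the vascular gene Kcnj8 had 0.11 (adjusted p = 0.774), a sign that turned to -0.00 without Braf+/+ replicate 4.

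Kcnj13 and the beta subunit gene Kcne2 are both known for the apical membrane of the choroid plexus, and the log2 changes furthest below 0 in the set were theirs. Kcnj13 read 86.3, 31.8, 36.9 and 80.8 in Nestin;BrafKE/+ libraries. In Braf+/+ libraries it read 26.8, 2010, 86.6, 476 and 133. Kcne2 read 83.3, 5.96, 67.9 and 51.9 against 36.8, 1154, 27.9, 406 and 102. The 2 high values of each gene came from Braf+/+ replicates 2 and 4, the same libraries in which the choroid plexus markers summed to 392090 and 114910. Neither gene passed the test (Kcnj13 log2 change -1.87, adjusted p = 0.397, and Kcne2 -1.86, adjusted p = 0.444). Without both libraries the log2 changes were 0.16 for Kcnj13 and 0.36 for Kcne2. Leaving out Braf+/+ replicate 4 also took series B out of the contrast, where the differences were -3.76 for Kcnj13 and -4.22 for Kcne2. The part of choroid plexus tissue in these changes was not tested.

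**Figure D3:**
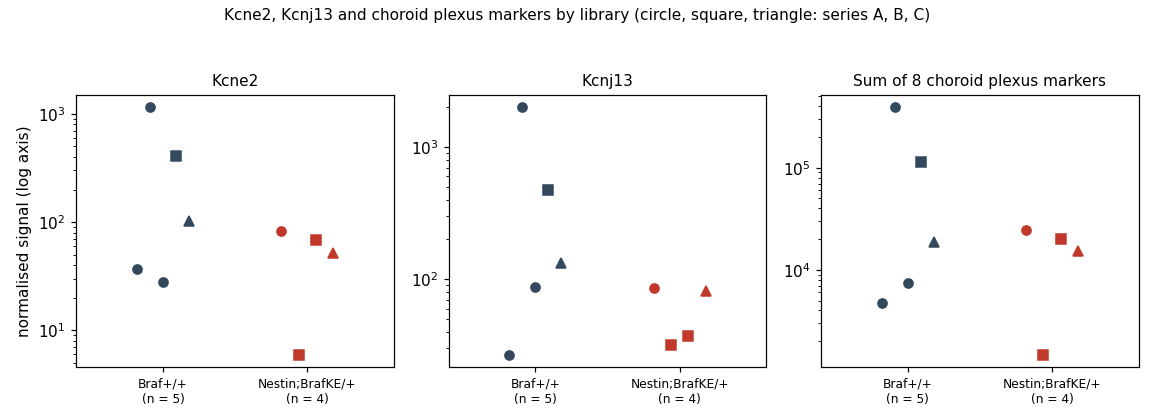
Normalised signal (y axes, log scale) of Kcne2, of Kcnj13 and of the sum of 8 choroid plexus markers in each library, with the genotype on the x axis, 1 point per animal and marker shape by series. In all 3 panels the highest point is Braf+/+ replicate 2 (marker sum 392090) and the next is Braf+/+ replicate 4 (114910).

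Two-pore-domain genes gave no call. Of 10 Kcnk genes 5 were higher and 5 lower, and the 4 with an unadjusted p under 0.05 (Kcnk1, Kcnk2, Kcnk4 and Kcnk9) were all lower. Kcnk9, which encodes the acid-sensitive background channel TASK-3, ran from 1189 to 1323 in Nestin;BrafKE/+ and from 1330 to 1526 in Braf+/+ libraries, close but without overlap, with a log2 change of -0.20 (adjusted p = 0.152). Kcnk1 (TWIK-1), the most abundant of the family per length, ran from 1590 to 1733 against 1745 to 1902, with -0.15 (adjusted p = 0.176). Kcnk4 (TRAAK), a mechanosensitive channel, ran from 142 to 153 against 169 to 214, with -0.30 (adjusted p = 0.211). The related gene Kcnk2 (TREK-1), which astrocytes and neurons share, overlapped between the groups, with -0.20 (adjusted p = 0.259). The lowest member, Kcnk5, had 0.65 with an interval from -0.29 to 1.59, which its low signal leaves wide.

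Of the calcium-activated channels, the pore genes were not called while the neuronal beta subunit of the large-conductance channel (BK) fell. Kcnmb4 (ENSMUSG00000054934, chr10:116253766-116309848, minus strand) encodes beta4, which slows BK gating and, in dentate granule cells, is known to restrain BK current during spikes. It read 631, 657, 628 and 629 in Nestin;BrafKE/+ libraries. It read 811, 745, 864, 789 and 813 in Braf+/+ libraries, each above all 4 of the others. From 804 ± 43.1 (SD, n = 5) to 636 ± 13.8 (SD, n = 4) the log2 change was -0.34 (SE 0.07, adjusted p = 0.0273), and the series gave -0.35, -0.30 and -0.37. The adjusted p exceeded the threshold without Braf+/+ replicate 1 (0.0554), 4 (0.102) or 5 (0.0800) and without Nestin;BrafKE/+ replicate 1 (0.141), 3 (0.0786) or 4 (0.0785). Of 6 dentate granule cell markers 3 were higher and 3 lower. Those past the test were Calb1 (0.43), Dsp (-0.78) and Lct (-0.39). The sums, 7436 to 8205 against 6929 to 7655, overlapped. The part of these cells in the change of Kcnmb4 was not tested.

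Kcnma1, the BK pore, had a log2 change of -0.13 (adjusted p = 0.259) with overlapping groups. Kcnn1, Kcnn2 and Kcnn3, the small-conductance channels behind the afterhyperpolarisation, had 0.07, 0.11 (interval -0.03 to 0.25) and 0.04. Kcnmb1, the smooth-muscle beta subunit, did not overlap between the groups (26.0 to 30.8 against 22.0 to 25.9), with 0.22 (adjusted p = 0.639). Its gene lies inside Kcnip1 on the opposite strand, and the sources used here do not give whether counting used strand. The non-coding Kcnmb4os1 and Kcnmb4os2 lie opposite Kcnmb4. Kcnmb4os2 had -0.54 (adjusted p = 0.171) and Kcnmb4os1, which ran from 15.1 to 129 in Nestin;BrafKE/+ libraries, 0.99 (interval -0.72 to 2.70).

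The Kcnq genes carry the M-current, the slow conductance that muscarinic receptors close to make neurons more excitable. Of the 5 genes of this group, the non-coding Kcnq1ot1 included, Kcnq3 alone was called, and it fell. It encodes Kv7.3, a subunit of the M-channel in the brain. Kcnq3 (ENSMUSG00000056258, chr15:65858236-66158491, minus strand) read 3644, 3504, 3206 and 3490 in Nestin;BrafKE/+ libraries. In Braf+/+ libraries it read 4344, 3985, 4361, 4582 and 4267, with a clear gap between the groups. From 4308 ± 215 (SD, n = 5) to 3461 ± 184 (SD, n = 4) the log2 change was -0.32 (SE 0.06, adjusted p = 0.0214), with -0.21, -0.45 and -0.29 in the 3 series. The adjusted p was above the threshold without Braf+/+ replicate 4 (0.133) or 5 (0.0540) and without Nestin;BrafKE/+ replicate 1 (0.0674), 3 (0.0584) or 4 (0.0533).

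Elsewhere in the group, Kcnq5, which also contributes to the M-current, had a log2 change of -0.15 (adjusted p = 0.367), and the imprinted Kcnq1ot1 had 0.05.

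**Figure D4:**
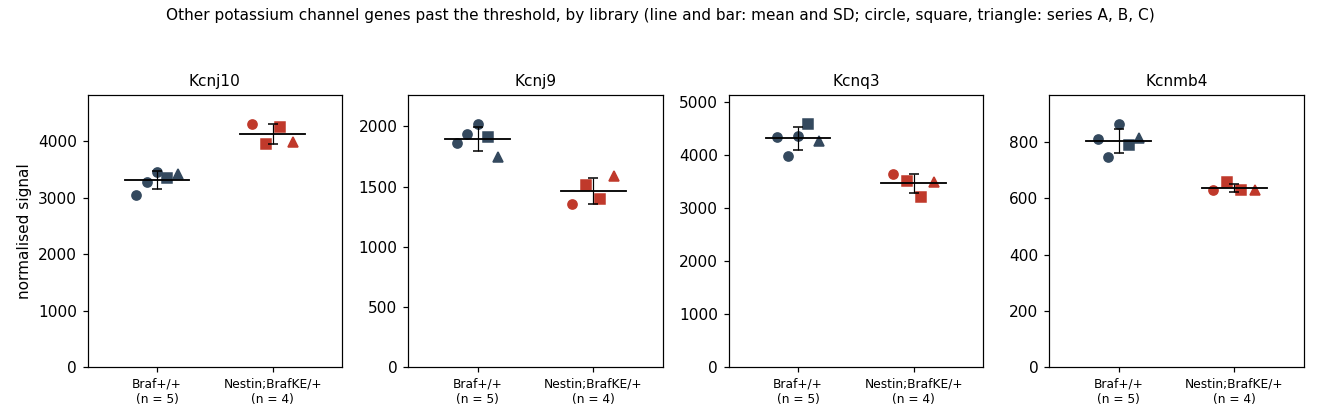
Normalised signal (y axes, from 0) in each library of the called genes outside the Kcnip family, Kcnj10, Kcnj9, Kcnq3 and Kcnmb4, with the genotype on the x axis, 1 point per animal, marker shape by series, and a line and error bar for the mean and SD of each group. Nestin;BrafKE/+ animals lie above Braf+/+ animals for Kcnj10 and below them for the other 3 genes, without overlap.

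The remaining 22 genes (Kcne, Kcnf, Kcng, Kcnh, Kcns, Kcnt, Kcnu and Kcnv) held no call, with 9 higher, 13 lower and a median log2 change of -0.14. The ether-a-go-go family Kcnh, slow voltage-gated channels named for a fly mutant, had 5 of 7 genes lower, and 3 of them had an unadjusted p under 0.05 (Kcnh1, Kcnh3 and Kcnh7). Kcnh1 read 946, 925, 856 and 903 against 1153, 1156, 948, 1141 and 1102, without overlap, where Braf+/+ replicate 3 stood next to the other group. Its log2 change of -0.27 (adjusted p = 0.0932) became -0.31 without that library and was then called (adjusted p = 0.0317). Kcnh3 ran from 1257 to 1566 against 1578 to 1870, with -0.27 (adjusted p = 0.102).

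Silent subunits lay on both sides of 0 without a call. Kcnf1 (Kv5.1) read 1732, 1508, 1629 and 1608 in Nestin;BrafKE/+ libraries and 1104, 1328, 1404, 1387 and 1310 in Braf+/+ libraries, without overlap, with a log2 change of 0.31 (SE 0.08, adjusted p = 0.0764). Kcns2 (Kv9.2) ran from 528 to 655 against 681 to 834, with -0.30 (adjusted p = 0.125). Both modify Kv2 channels, the class to which Kcnb2 belongs. Kcnt1, the sodium-activated channel Slack, had 0.41 (adjusted p = 0.0939), from 1349, 1163, 1143 and 989 against 844, 916, 719, 869 and 1013. Its groups overlapped, and the pair of series C differed by -0.03. Leaving out either animal of that series removes the series from the contrast, which gave the same estimate of 0.57 both ways, and it was called (adjusted p = 0.0290 without Nestin;BrafKE/+ replicate 4 and 0.0287 without Braf+/+ replicate 5).

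Exact permutation tests of single genes could not go below p = 0.00794 when genotypes were reassigned among all 9 libraries, or below 0.0417 when they were reassigned within series (both two-sided). Each of the 8 called genes reached both values. Kcnb2 and Kcnf1 reached them too, and the exact permutation p of Kcnd2 was 0.0159 and 0.0417. All these genes were named for values in the same data and had groups without overlap, so these p-values add no separate support. Kcnt1 had p = 0.0238 over all libraries and 0.0833 within series (exact permutation tests, two-sided, n = 4 and 5). Each such p-value is the share of reassignments, the real one included, that gave a difference at least as large as the observed one.

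**Figure D5:**
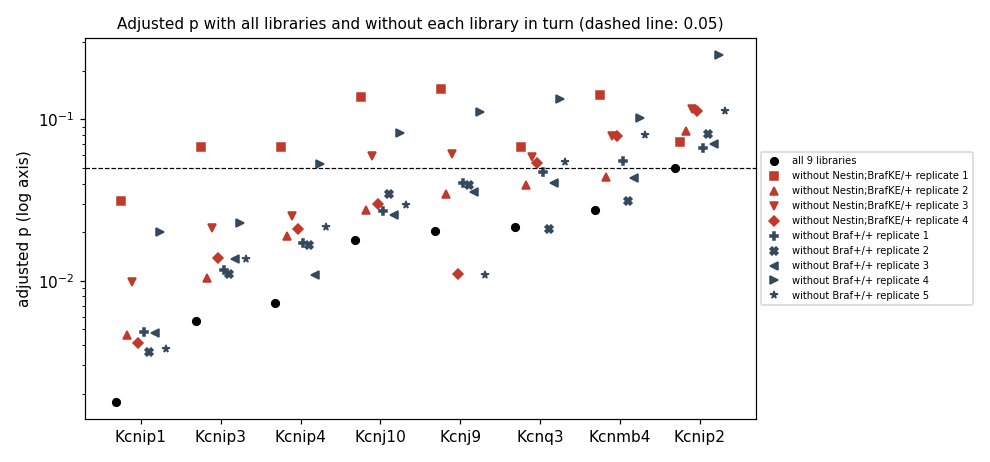
Adjusted p (limma, y axis on a log scale) of the 8 called genes with all libraries and with each library left out in turn, 1 column per gene and 1 point per fit, with a line at the threshold of 0.05. Kcnip1 stays below the line in every fit, Kcnip3 in 8 of 9, Kcnip4 in 7 and Kcnip2 in 0.

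Genes that work beside the channels were read from 2 lists, where 2.88% of all genes tested were called. Of 28 partner genes (scaffolds, secreted organisers, anchoring proteins and calcium sensors) 27 were tested, 10 were higher and 17 lower, 2 were called and both fell. Akap5, which anchors kinases and calcineurin at M-channels and elsewhere, had a log2 change of -0.25 (adjusted p = 0.0333). Its call was lost without any 1 library other than Braf+/+ replicate 3, in 8 of 9 fits, with adjusted p of up to 0.137. Dpp6 and Dpp10, which join Kv4 channels together with KChIPs, had 0.03 (adjusted p = 0.818) and -0.16 (adjusted p = 0.647).

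Of 23 potassium transport genes, which restore the gradients that channels use, 12 were higher and 11 lower. Of these, 2 were called higher and 1 lower. Atp1b2, a sodium pump subunit of astrocytes, rose by 0.27 on the log2 scale (adjusted p = 0.0208). It lost its call in 5 of the 9 fits, without Nestin;BrafKE/+ replicate 1 (0.119), 3 (0.0669) or 4 (0.0666) or Braf+/+ replicate 4 (0.0662) or 5 (0.0670).

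Between genes, levels can be compared only per length, and only roughly, because the canonical transcripts differ in how much untranslated sequence they hold. Per kilobase of canonical transcript high mean signals were those of Kcnab2 (2716), Kcnip2 (1513), Kcnab1 (825), Kcnk1 (764), Kcnn2 (713) and Kcnj10 (678). In these terms Kcnq3 stood at 365 in Braf+/+ and 293 in Nestin;BrafKE/+ mice, and Kcnj9 at 484 and 374. Kcnmb4 stood at 588 and 465, above its pore gene Kcnma1 at 339 and 309. The canonical transcript of Kcnma1 has 12048 bases for 1178 residues, and that of Kcnmb4 has 1368 bases for 210. That of Kcnn2 has 1725 bases for 574 residues, little more than coding sequence. Its signal per kilobase may therefore be too high beside the others.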

How the data were processed

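Reads had been trimmed by the authors (Trim Galore), mapped to GRCm39 (STAR) and quantified (Salmon), after which they adjusted unnamed batches and scaled the values with DESeq2. Per the labels and the values, the deposited table holds a signal of normalised counts, 1 value per gene and library. Values are whole multiples of a step in each library, but that of mt-Co1 is 491938 steps in all 9 libraries, so they are not sequenced reads, the depth is unknown and no count model was used. Whether counting used strand is not given in the sources used here.

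Groups came from the labels. Genes with a mean of at least 10 (16196 of 18275) entered limma 3.58.1 (R 4.3.3) on log2(value + 1), with genotype and series of library names as terms and a mean-variance trend. P-values are two-sided and Benjamini-Hochberg adjusted over these genes, with a threshold of 0.05. The fit takes no account of the authors' earlier batch adjustment, so the SEs and p-values may be too small. Fold changes are on this scale, which understates those of low genes, and intervals are at 95%. Coordinates, lengths and coding sequences came from Gencode vM39 (GRCm39), in which 81 of 81 genes were found. Python 3.11.15 with pandas 2.3.3 was used for the other steps, and matplotlib 3.10.9 for figures. The fit was tested on simulated data without series effects. The planted changes were larger than those of the called potassium channel genes, so changes as small as theirs were not tested.

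The genes named with values are those past the threshold, those with an unadjusted p under 0.05 and no overlap, the 2 highest of each of 7 subfamilies, those with a mean of at least 1000 and an unadjusted p under 0.05, the 2 on each side of the mean of 10, 15 genes known for a cell type or current, and called genes of the partner and transport lists. Others (Kcna4, Kcnab1, Kcnd1, Kcnd3, Kcnh7, Kcnj6, Kcnmb1, the non-coding transcripts, Kcnn1, Kcnn3, Kcnq5, Dpp6 and Dpp10) were added after their values were seen. Values of some genes and sequences are not reported here. The genes and lists were chosen with earlier results of these data known. Alternatives were other pseudocounts (0.5 and 8), filters (none, or a mean of 50), scalings, terms, weights and robust moderation, each library left out in turn and a replicate block. Leaving out Braf+/+ replicates 2 and 4 together was added after seeing the data.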

Additional observations from a re-analysis of the deposited data

Results flagged for a closer look

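Of 70 groups of values (35 named genes in 2 genotypes), 6 held a library far from the rest of its group by Dixon's criterion, which chance alone gives in about 1 of 20 groups. Nestin;BrafKE/+ replicate 1 read 3767 for Kcna2, a Kv1 channel of axons, where the others of its group read 3473 to 3510. For Kcnb2 (Kv2.2), Nestin;BrafKE/+ replicate 3 read 296.5 against 346.4 to 355.7. Kcnmb4, the neuronal BK beta subunit, was 656.7 in Nestin;BrafKE/+ replicate 2 and 628 to 630.5 in the others, a gap that is large only beside their narrow spread. Kcnh1 was 947.8 in Braf+/+ replicate 3 and 1102 to 1156 in the others. Braf+/+ replicate 5 read 834.7 for Kcnk2 (TREK-1) against 951.9 to 962.1. Kcnj13, the choroid plexus channel, was 2010 in Braf+/+ replicate 2 and 26.83 to 476 in the others.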

How the results depend on the processing

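The number of genes past the threshold, 466 overall and 8 potassium channel genes, depended most on the terms and on which libraries entered. It was 2260 and 22 without the series term, 165 and 4 with 4 name prefixes as the term (Kcnip1, Kcnip3, Kcnip4 and Kcnq3), 58 and 2 without Braf+/+ replicates 2 and 4 (Kcnip1 and Kcnip3), and 258 overall with array weights. Leaving out 1 library gave 42 to 369 genes and 1 to 8 potassium channel genes, and 16 to 27 of the latter at an unadjusted p under 0.05. Their median log2 fold change lay between -0.086 and -0.036 in those fits and was -0.021 without both Braf+/+ libraries. Same-numbered animals did not deviate together (correlations -0.39, -0.08, 0.07 and 0.41, and only Nestin;BrafKE/+ replicate 4 correlated best with its own number), and a replicate block gave 1405 and 15. Over 35 named genes and 733 alternative values, 663 kept direction and call, 42 lost the call, 20 gained one and 8 reversed, all among genes not called. Reversed were Kcna2 (0.021 without Braf+/+ replicate 4, 0.011 without both, range -0.098 to 0.021), Kcnj16 (0.040 without Nestin;BrafKE/+ replicate 1, 0.054 without both, range -0.16 to 0.040), Kcnj8 (-0.00238 without Braf+/+ replicate 4, range -0.00238 to 0.21) and, without both, Kcne2 (0.36), Kcnj13 (0.16) and Kcnj3 (0.016). The cause was not tested. Kcnip2 also lost its call with no filter, quantile normalisation and array weights. The depth behind the values is unknown, so the limit it sets could not be computed.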
